A study of Mus musculus with 4 samples.

Results

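The genes described here are 10 members of the bone morphogenetic protein (BMP) pathway, out of 32286 features counted in spatial transcriptomics of mouse dorsal skin. They were chosen by gene symbol and comprise the ligands *Bmp2*, *Bmp4*, *Bmp6* and *Bmp7*, the receptor *Bmpr1a*, the antagonist *Nog*, and the targets *Id1*, *Id2*, *Id3* and *Smad7*. By the paper's count, the skin came from 3 *Krox20-CreERT; R26-tdTomato* mice, in which CreERT had been inserted at the *Krox20* locus without removing *Krox20*. All mice received 4-hydroxytamoxifen at P2 and were examined at P38, and no untreated or wild-type sample was compared. Visium slides were used, on which the RNA of a section is caught by spots whose barcodes record where it lay. The 4 slices carried sections of the same mice, so they are technical replicates. Every SD, SE and *P* value below measures the spread between slices, not between mice. The exception is an alternative with 3 strips pooled over the slices, whose *P* values measure the spread between strips. Other members of the pathway, 39 genes listed with the study's design, are given as counts beside these 10.

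BMP ligands are secreted dimers that bind type I receptors, such as the one encoded by *Bmpr1a*, together with type II receptors, and the activated complex phosphorylates SMAD1, SMAD5 and SMAD9. These SMADs enter the nucleus with SMAD4 and switch on target genes, among them the *Id* genes, whose products hold back basic helix-loop-helix transcription factors, and *Smad7*, whose product feeds back on the receptors. Noggin, the product of *Nog*, binds the ligands and keeps them from their receptors. In the hair follicle (HF), BMP signaling is known for holding bulge stem cells at rest and for the differentiation of the hair shaft and inner root sheath, whereas noggin from the dermal papilla favors growth.

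All 10 genes were found in the counts under 1 identifier each. In GRCm38, the ligand genes lie at chr2:133552159-133562885 (*Bmp2*), chr14:46383520-46390669 (*Bmp4*), chr13:38345107-38500302 (*Bmp6*) and chr2:172868012-172940321 (*Bmp7*). *Bmpr1a* lies at chr14:34410734-34503341 and *Nog* at chr11:89300638-89302332. The inhibitor-of-differentiation genes lie at chr2:152736251-152737410 (*Id1*), chr12:25093799-25097140 (*Id2*) and chr4:136143497-136145755 (*Id3*). Exons of *Bmp4*, *Bmp6* and *Bmpr1a* overlap those of *Gm15217*, *Txndc5* and *Gm17110* on the opposite strand, and the sources used here do not state whether counting used the strand, so reads of these pairs may not be fully separated. RefSeq promoters (GRCm38.p6) matched 5 of the 10 genes, namely *Bmp4*, *Bmp6*, *Bmpr1a*, *Id2* and *Id3*. Stretches of the *Bmp4* and *Id2* windows are shown as examples, chosen after it was seen that these 2 genes differed in opposite directions between the melanocyte and *Krt32* regions described below, and only the bases outside annotated exons are printed. *Bmp4* is shown from chr14:46390670-46390919 and *Id2* from chr12:25096254-25096342, both on the minus strand. The *Bmp4* stretch lies outside its gene, whereas the *Id2* stretch, before the RefSeq start, lies inside the gene span given above and is intronic, so the 2 stretches are not of 1 kind. Capitals mark GGCGCC, a GC-rich element of the kind that BMP-activated SMADs are known to bind, which reads the same on both strands.
Bmp4: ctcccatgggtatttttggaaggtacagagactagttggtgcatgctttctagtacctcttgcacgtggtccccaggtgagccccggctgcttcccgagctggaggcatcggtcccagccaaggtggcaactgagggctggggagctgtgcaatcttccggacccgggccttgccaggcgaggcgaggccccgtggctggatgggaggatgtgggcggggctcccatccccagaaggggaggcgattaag
Id2: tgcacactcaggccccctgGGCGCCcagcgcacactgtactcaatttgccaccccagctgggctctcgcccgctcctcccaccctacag
Over the 5 matched windows of 250 bases, the element was present once each in *Bmpr1a* and *Id2* and absent from *Bmp4*, *Bmp6* and *Id3*, and *Bmpr1a*, like *Bmp4*, was lower in the melanocyte than in the *Krt32* region. Of all windows, 3149 of 32851 (9.59%) held it. This is a match of letters and not a measurement of binding.

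To measure these genes in tissue compartments that they had not defined, spots were clustered without the 10 genes and the 39 other pathway genes. Regions were named from marker lists, and a spot, being wider than a cell, mixes the cell types at its position. The layers followed one another from the surface: an epidermis region (852 spots, led by *Lce1m*, *Lor* and *Krt10*), a sebaceous gland and upper follicle region (591 spots, led by *Serpina3j*, *Fa2h* and *Cidea*), an outer root sheath region (1460 spots, with *Krt14*), a region led by keratin-associated protein genes such as *Krtap4-9* (692 spots, here the *Krtap* region), a hair shaft region led by *Krt32* (838 spots, the *Krt32* region), a matrix region with *Ube2c* and *Top2a* (978 spots) and a skeletal muscle region (744 spots, led by *Myl1* and *Ttn*). A melanocyte region of 105 spots, led by *Mlana*, *Dct* and *Tyrp1*, lay within the bulb layers. A region of 132 spots with muscle and keratin-associated genes was nearly absent from slice 1, and a Schwann region held 19 spots, so neither was tested. The epidermis region was not pure: 7 of 10 dermal fibroblast markers and 8 of 8 immune markers were at least 2-fold higher there than in the other spots, so it includes the superficial dermis. The *Krt32* region was mixed too. By the same measure, 6 of 9 hair shaft markers and 6 of 8 inner root sheath markers were higher there, so levels in it are not those of hair shaft alone. In the outer root sheath region, 268 spots formed a cluster of their own, nearly all from slice 1, with *Krtap19-1*, *Krtap19-2* and *Krtap19-3* among its leading genes. Levels in these and in the other spots of the region, in CPM (counts scaled to a common library total), were 1.1 and 2.21 for *Nog*, 24.8 and 19.4 for *Bmp2*, 94.5 and 77.3 for *Id3* and 37.2 and 31.4 for *Smad7*. For *Bmpr1a* they were 130 and 138. No cluster matched the dermal fibroblast or adipose lists. Slices held between 19393026 and 26910422 unique molecular identifiers (UMIs), and the median spot ranged from 8686 UMIs in the gland and upper follicle region to 21523.5 in the matrix region. A slice section that the authors set aside as distorted could not be matched to spots here, so all were kept. The paper does not say which mouse that section came from, so the spots may include a mouse beyond the 3 it counts.

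**Figure D1:**
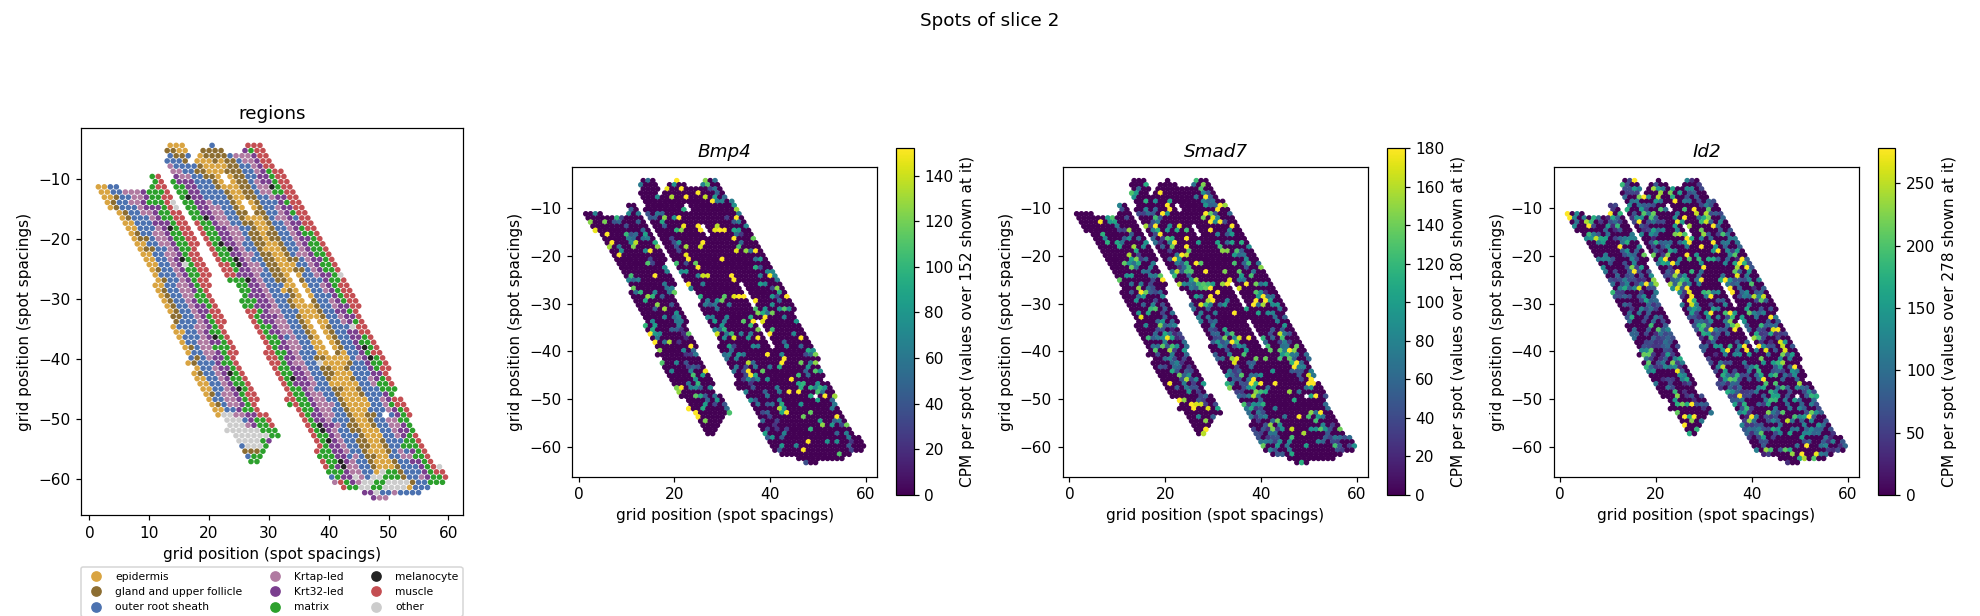
Spots of slice 2, drawn at their grid positions in spot spacings, colored by region (left) and by the CPM of *Bmp4*, *Smad7* and *Id2* in each spot. The regions form parallel bands, and single spots vary widely for each gene, so levels are read from sums over a region.

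Between the 8 regions, 9 of the 10 genes differed (edgeR quasi-likelihood test over all regions, Benjamini-Hochberg over 12703 genes, *P* adj < 0.05), beside 90.7% of all genes tested, so that a difference between regions was the rule in this tissue. *Nog*, with 225 UMIs in all, was the exception (*P* adj = 0.058), and with the slice as a replicate block it also passed (*P* adj = 0.043). Levels are in CPM, a gene's share of the UMI total of its region in that slice. A lower level in a region can mean fewer expressing cells or less of the gene's RNA per cell. It can also mean more RNA of other genes, and spots cannot tell these apart. The median UMIs per spot differed between regions, so CPM does not give a gene's UMIs per spot. Values over slices are mean ± SD, n = 4.

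**Figure D2:**
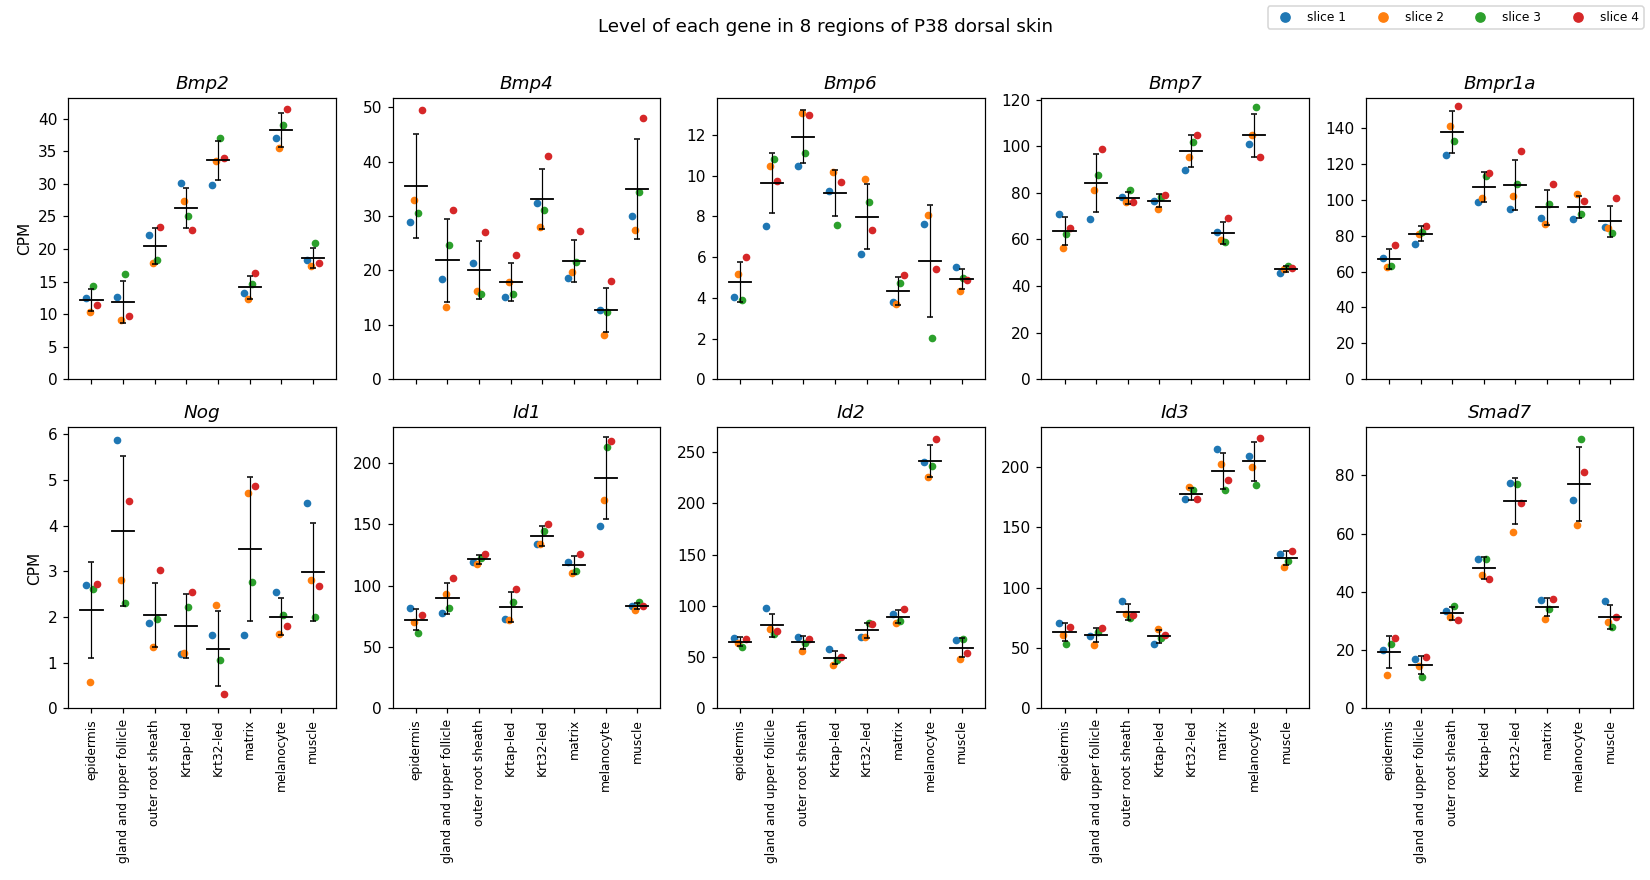
CPM of the 10 genes (y axes, from 0) in 8 regions ordered from the surface inward, with the melanocyte region before muscle. Points are the 4 slices, horizontal lines the means and bars the SD; *Bmp2* and *Smad7* share a maximum in the *Krt32* and melanocyte regions, *Bmpr1a* peaks in the outer root sheath at 138 CPM, and *Id2* stands at 241 CPM in the melanocyte region.

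Among the ligands, *Bmp2* was lowest at the surface and highest in the melanocyte and *Krt32* regions. Its level was 12.5, 10.4, 14.3 and 11.4 CPM in the epidermis region of slices 1 to 4 and 29.8, 33.5, 37.1 and 34.0 CPM in the *Krt32* region, without overlap. In the matrix region it was 13.2, 12.3, 14.6 and 16.3 CPM, and in the melanocyte region 37.0, 35.5, 39.0 and 41.5 CPM. The order from the top was melanocyte, *Krt32*, *Krtap* (26.3 ± 3.09 CPM), outer root sheath (20.4 ± 2.79), muscle (18.6 ± 1.56), matrix, epidermis, and gland and upper follicle (11.9 ± 3.21). The first 3 steps in that order, and that from muscle to matrix, exceeded the SD of the difference over slices, whereas outer root sheath and muscle, matrix and epidermis, and the last 2 regions did not differ beyond their spread. This order is that of CPM, and with TMM scaling, described below, the first 2 steps were at 0.01 (*P* adj = 0.96) and 0.10 (*P* adj = 0.54) on the log2 scale.

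*Bmp4*, the BMP ligand best known from dermis and dermal papilla, took another course. It was 28.9, 32.9, 30.6 and 49.6 CPM in the epidermis region and 30.1, 27.4, 34.5 and 48.1 CPM in the muscle region, with slice 4 highest in both. The *Krt32* region followed at 32.5, 28.0, 31.1 and 41.0 CPM, and these 3 regions did not differ beyond their spread. The melanocyte region had the lowest values, 12.8, 8.08, 12.3 and 18 CPM, which came from 31 UMIs. The other 4 regions lay between 17.9 and 21.9 CPM, and within them no neighbor in the order stood apart.

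*Bmp6* had its highest mean in the outer root sheath. It measured 10.5, 13.1, 11.1 and 13.0 CPM there and 3.80, 3.70, 4.74 and 5.11 CPM in the matrix region. On the CPM scale the outer root sheath was above the gland and upper follicle region (9.64 ± 1.47 CPM) in 4 of 4 slices and by more than the spread, but with TMM scaling neither that region nor the *Krtap* region was separated from it (*P* adj = 0.38 and 0.86). Below it, none of the neighboring regions in the order were separated, and the gene had 671 UMIs in all spots.

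*Bmp7* varied least of the ligands and was found in every layer. Its level was 89.7, 95.4, 102 and 105 CPM in the *Krt32* region, 101, 105, 117 and 95.5 CPM in the melanocyte region, and 45.4, 47.3, 48.7 and 47.6 CPM in muscle. The ratio of its highest to its lowest regional mean was 2.21, against 3.21 for *Bmp2*, 2.78 for *Bmp4* and 2.75 for *Bmp6*.

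*Bmpr1a*, the type I receptor, was highest in the outer root sheath in 4 of 4 slices, at 125, 141, 133 and 152 CPM. The epidermis region was lowest in 4 of 4 slices, at 67.3, 62.3, 63.2 and 74.7 CPM, and the groups did not overlap. These 2 regions are the extremes by the same values, so the lack of overlap is no test. The extremes of *Nog*, which did not pass over the 8 regions, did not overlap either. Between them, the *Krt32* (108 ± 13.7 CPM) and *Krtap* (107 ± 8.07 CPM) regions did not differ beyond their spread, nor did the melanocyte (96 ± 6.41 CPM) and matrix (95.8 ± 10 CPM) regions.

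*Nog* was sparse, with a UMI in 3.33% of spots. Its regional means ran from 1.31 ± 0.826 CPM in the *Krt32* region to 3.88 ± 1.63 CPM in the gland and upper follicle region, and no neighbors in that order differed beyond their spread. The matrix region held 1.61, 4.71, 2.77 and 4.86 CPM, and slices 2 and 4 were above the other 2. In the 264 spots in which the dermal papilla list (*Corin*, *Hhip*, *Notum* and others) had the highest marker score, *Nog* was higher, at 5.28, 9.54, 5.75 and 9.46 CPM from 6, 11, 8 and 9 UMIs, and 11.2% of these spots held a UMI. Over the regions made from marker scores, described below, *Nog* differed (*P* adj = 1.7e-05), beside 88.6% of 11851 genes. The dermal papilla spots had the highest mean among these regions, 7.51 ± 2.31 CPM, and spots of the Schwann list were next at 6.12 ± 3.51 CPM, with overlapping slices.

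The targets did not follow a single pattern. *Id1* was highest in the melanocyte region (149, 170, 213 and 218 CPM) and next in the *Krt32* region (134, 134, 145 and 150 CPM), with the highest of the latter just above the lowest of the former. It was 119, 118, 123 and 126 CPM in the outer root sheath and 81.8, 70.4, 61.2 and 76.3 CPM in the epidermis region, and these last 2 did not overlap. *Id2* stood out in the melanocyte region, at 240, 226, 236 and 263 CPM, whereas it was 92.5, 83.5, 85.6 and 96.8 CPM in the matrix region and 57.8, 42.8, 47.7 and 49.9 CPM in the *Krtap* region. The ratio between its highest and lowest regional means was 4.87.

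*Id3* was high in the lower follicle. It was 173, 183, 181 and 173 CPM in the *Krt32* region, 215, 202, 181 and 189 CPM in the matrix region and 209, 200, 185 and 224 CPM in the melanocyte region, so that the matrix values overlapped those of both other regions, whereas the highest *Krt32* value lay just below the lowest melanocyte value. In the *Krtap* region, directly above, it was 53.0, 66.0, 58.4 and 61.1 CPM, close to the epidermis region (63.2 ± 7.65 CPM) and the gland and upper follicle region (60.7 ± 6 CPM). Muscle lay between the 2 groups at 124 ± 5.90 CPM. *Smad7*, by contrast, was 77.2, 60.4, 76.9 and 70.6 CPM in the *Krt32* region and 51.4, 45.6, 51.3 and 44.3 CPM in the *Krtap* region, but 37.2, 30.8, 34.0 and 37.4 CPM in the matrix region. Its lowest level, 14.9 ± 3.02 CPM, was in the gland and upper follicle region.

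Of the other pathway genes, 11 of 39 had their highest regional mean in the melanocyte region, although *Bmp8b*, *Gdf6* and *Bmp8a* had only 1, 2 and 3 UMIs there. A further 6 each had it in the gland and upper follicle and the outer root sheath regions, 4 in muscle, 3 in the *Krt32* region and 1 in the matrix region. *Gdf7* had no UMI in any spot. *Bambi*, which encodes a decoy receptor induced by BMP, was 212 ± 15.5 CPM in the *Krt32* region and 305 ± 18.6 CPM in the melanocyte region, against 32.4 ± 9.67 CPM in the gland and upper follicle region. The antagonist genes *Sostdc1* (91.6 ± 19.0 CPM), *Fst* (41.8 ± 7.11 CPM) and *Grem1* (14.1 ± 6.45 CPM) had their highest means in the gland and upper follicle region.

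The genes were then compared between neighboring layers, and most of these pairs were chosen after the layout of the regions had been seen. Fold changes below are log2 ± SE from the same edgeR fit, normalized by TMM (trimmed mean of M values), and a call is a *P* adj < 0.05. From the epidermis region to the gland and upper follicle region, 5 of 10 genes were called, beside 17.9% of 12703 genes (9.04% higher and 8.86% lower). *Bmp4* fell by 0.66 on the log2 scale (SE 0.21, *P* adj = 0.025), and *Bmp6* (1.04 ± 0.26, *P* adj = 0.0053), *Bmp7* (0.40 ± 0.09, *P* adj = 0.0014), *Bmpr1a* (0.28 ± 0.09, *P* adj = 0.024) and *Id1* (0.31 ± 0.10, *P* adj = 0.024) rose. None of these calls held in all alternatives. With all deposited spots clustered, all 5 lost the call (*P* adj 0.098 to 0.69), and *Bmp7* turned to −0.13. *Bmp4* lost its call without slice 2 (*P* adj = 0.19), *Bmp6* without slice 3 (0.053) and *Bmp7* without slice 4 (0.066). *Id1* lost it without slices 2, 3 or 4 (0.15 to 0.26) and *Bmpr1a* without any 1 of the 4 (0.066 to 0.18). With the slice as a block, *Id2* was called as well (0.32, *P* adj = 0.014). Summed dermal fibroblast markers were 34000 ± 2230 CPM in the epidermis region and 18200 ± 2620 CPM in the upper follicle, and summed immune markers were 2390 ± 301 and 849 ± 189 CPM. Their part in these differences was not tested. Among other pathway genes, 7 of 31 tested were called, 6 higher and 1 lower, with *Gdf10*, a BMP-related ligand, at 1.49 ± 0.19 and *Gata3* at −1.08 ± 0.19.

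From there to the outer root sheath, 6 of 10 genes were called, beside 23.8% of all genes (10.9% higher and 12.8% lower). *Smad7* rose by 1.11 ± 0.17 (*P* adj = 3.1e-06) and *Bmpr1a* by 0.75 ± 0.08 (*P* adj = 1.8e-09), and both calls held in all alternatives. *Bmp2* rose by 0.80 ± 0.17 (*P* adj = 0.00039), a call that was lost in 3 of the other clusterings, where the fold was between 0.46 and 0.56. *Id1* rose by 0.41 ± 0.09 (*P* adj = 0.0005) and *Id3* by 0.39 ± 0.11 (*P* adj = 0.0081), and *Id2* fell by 0.34 (SE 0.11, *P* adj = 0.023). The *Id1* call was lost with thinned spots (0.27, *P* adj = 0.14). The *Id3* call was lost in regions made from marker scores (0.26, *P* adj = 0.17) and without slice 1 (*P* adj = 0.096) or 2 (0.084), and that of *Id2* without slice 2 (0.15), 3 (0.056) or 4 (0.06). *Bmp4*, *Bmp6*, *Bmp7* and *Nog* were not called. The median log2 fold of the 10 genes was 0.34, and that of all genes 0.02. Among the other pathway genes, 13 of 31 were called, 7 higher and 6 lower: the receptor gene *Bmpr1b* (1.89 ± 0.40) and *Id4* (1.40 ± 0.12) were higher in the outer root sheath, and *Grem1* (−2.53 ± 0.35) and *Gdf10* (−1.60 ± 0.17) lower.

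Between the outer root sheath and the *Krtap* region, 4 of 10 genes were called, beside 26.1% of all genes (12.7% higher and 13.4% lower). The median of all genes was −0.04 by TMM but −0.34 with library size alone, so folds here depend on the scaling. *Smad7* rose by 0.87 ± 0.12 (*P* adj = 3.3e-07) and held in all alternatives, at 0.56 with library size alone. *Bmp2* rose by 0.67 ± 0.12 (*P* adj = 4.1e-05), but by 0.21 after each spot had been thinned to 5500 UMIs, where it was not called. *Bmp7* was higher by TMM (0.28 ± 0.08, *P* adj = 0.0092) and at −0.03 with library size alone, and its call was lost without slice 2 (*P* adj = 0.057). *Id1* fell by 0.26 (SE 0.09, *P* adj = 0.02), which was lost without any 1 of the 4 slices (*P* adj 0.065 to 0.18). Without slice 2, only 2 of the 10 genes were called. Of the other pathway genes, 16 of 31 were called, 5 higher and 11 lower, led by *Sostdc1* (−2.55 ± 0.18) and *Gdf10* (−2.52 ± 0.30).

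The step from the *Krtap* to the *Krt32* region carried a large rise of *Id3*. Here 6 of 10 genes were called, beside 35.1% of all genes (14.3% higher and 20.8% lower). *Id3* rose by 1.34 ± 0.10 (*P* adj = 7.2e-14) and *Id1* by 0.55 ± 0.09 (*P* adj = 2.5e-06), and both held in all alternatives. *Bmp4* rose by 0.65 ± 0.19 (*P* adj = 0.0053), *Id2* by 0.37 ± 0.11 (*P* adj = 0.0068) and *Smad7* by 0.33 ± 0.11 (*P* adj = 0.023). *Bmp4* lost the call in 2 other clusterings and *Smad7* in 3, and *Id2* lost it without slice 2 (*P* adj = 0.054). *Bmpr1a* was at −0.22 ± 0.08 by TMM (*P* adj = 0.026) and at 0.02 with library size alone, and its call was lost without any 1 of the 4 slices (*P* adj 0.081 to 0.31). *Bmp2* (0.10 ± 0.12) and *Bmp7* (0.12 ± 0.08) were not called. Among other pathway genes, 15 of 31 were called, 5 higher and 10 lower: *Bmper*, which encodes a BMP-binding protein, was at 2.11 ± 0.29, and *Bmpr1b* at −2.52 ± 0.48.

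From the *Krt32* region down to the matrix, 8 of 10 genes were called, beside 54.2% of all genes (29.6% higher and 24.7% lower), and 7 of the 8 were lower in the matrix. *Bmp2* fell by 1.41 (SE 0.11, *P* adj = 1.1e-13), *Smad7* by 1.18 (SE 0.11, *P* adj = 3.5e-12), *Bmp7* by 0.78 (SE 0.08, *P* adj = 3e-11) and *Bmp4* by 0.76 (SE 0.15, *P* adj = 6.6e-05), and these 4 calls held in all alternatives. *Bmp6* fell by 1.05 (SE 0.18, *P* adj = 6.2e-06), which was lost only with thinned spots (*P* adj = 0.085). *Bmpr1a* (−0.32 ± 0.07, *P* adj = 0.00035) lost its call with library size alone, and *Id1* (−0.41 ± 0.08, *P* adj = 4e-05) was at −0.07 in regions made from marker scores. *Bmpr1a* had a UMI in 82.2 ± 2.29% of matrix and 80.9 ± 4.02% of *Krt32* spots, and *Id1* in 86.2 ± 2.68% and 81.8 ± 1.24%. For *Bmp2*, *Bmp4*, *Bmp6*, *Bmp7* and *Smad7* this percentage was lower in the matrix. Matrix spots held more UMIs (median 21523.5 against 16113.5), so these percentages are not at a common depth. *Id2* (0.10 ± 0.10, *P* adj = 0.41) and *Id3* (0.01 ± 0.09, *P* adj = 0.95) were not called, with folds near 0 by TMM. *Nog* rose by 1.14 ± 0.38 (*P* adj = 0.011) on 73 UMIs against 20, a call that was lost without slice 3 (1.05, *P* adj = 0.065) or 4 (0.63, *P* adj = 0.22). It was also lost in regions made from marker scores (0.76, *P* adj = 0.22). Summed dermal papilla markers were 141 ± 21.2 CPM in the matrix region and 30.8 ± 4.18 CPM in the *Krt32* region, and all 8 had a UMI in the matrix region of every slice. Their part in these differences was not tested. The median log2 fold of the 10 genes was −0.58, and that of all genes 0.09. Of the other pathway genes, 19 of 31 were called, 10 higher and 9 lower, with *Gdf10* at 1.98 ± 0.27 and *Fst* at 1.94 ± 0.26.

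**Figure D3:**
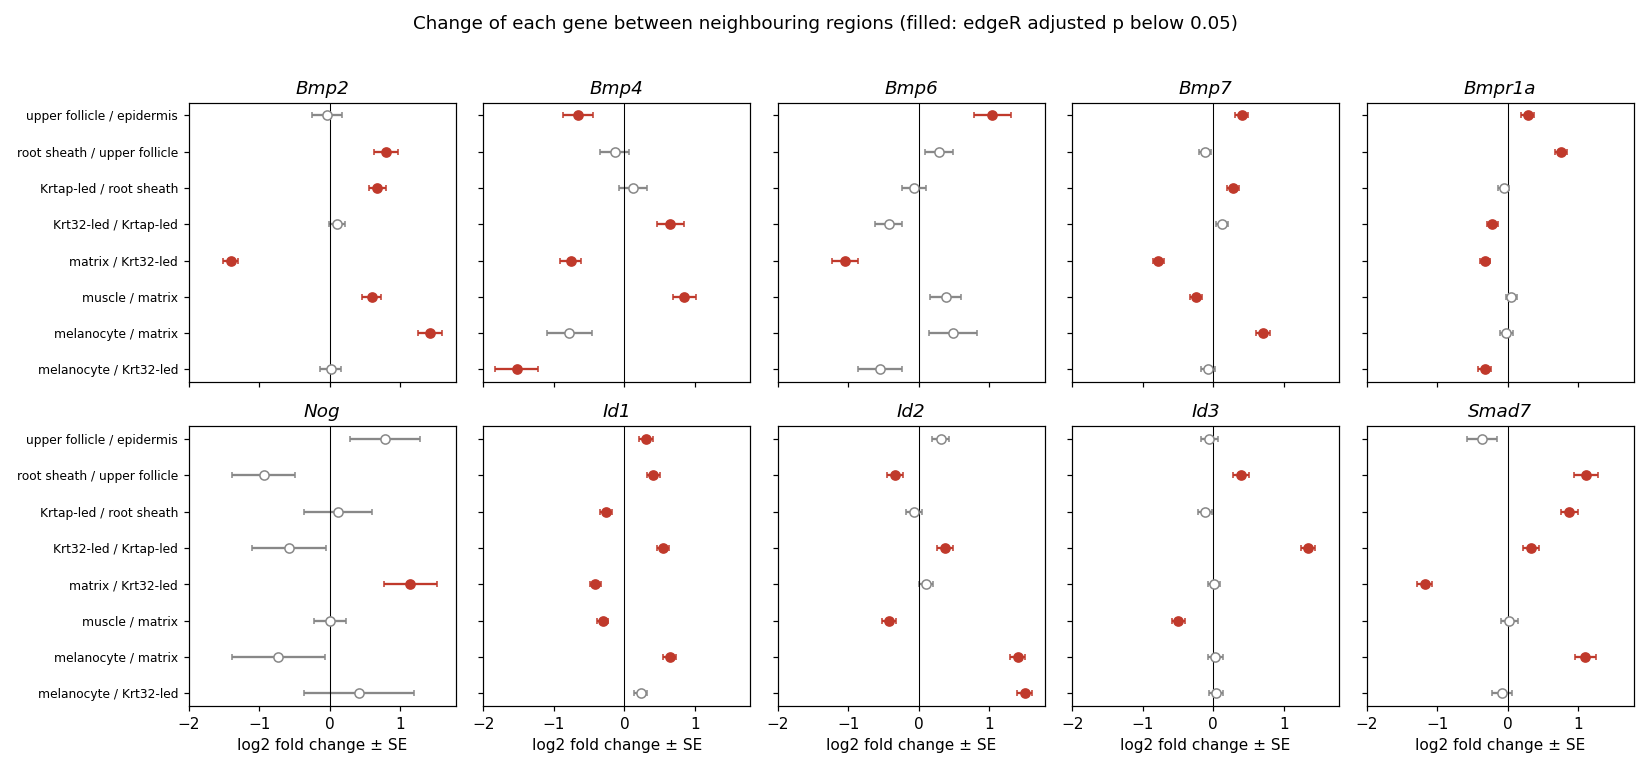
Log2 fold change ± SE (x axes) of each gene between pairs of regions (y axis, first region over second), from edgeR with TMM; filled red points passed *P* adj < 0.05 and open gray points did not. *Bmp2* and *Smad7* fall by 1.41 and 1.18 from the *Krt32* region to the matrix, and *Id2* is at 1.40 and 1.5 in the melanocyte region.

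The matrix and *Krt32* regions as 1 group were also compared with the outer root sheath. Here 6 of 10 genes were called, beside 62.9% of all genes (28.1% higher and 34.8% lower). *Id3* was higher in the former (1.22 ± 0.09, *P* adj = 9.7e-16), as were *Smad7* (0.61 ± 0.10, *P* adj = 1.4e-06), *Id2* (0.35 ± 0.09, *P* adj = 0.00053) and *Bmp4* (0.40 ± 0.14, *P* adj = 0.014). *Bmp6* (−1.02 ± 0.14, *P* adj = 3.7e-08) and *Bmpr1a* (−0.44 ± 0.06, *P* adj = 1e-07) were lower. The *Bmp4* call was lost without slice 2 (0.35, *P* adj = 0.064), and the other 5 held in all alternatives. *Bmp2* (0.07 ± 0.10) and *Bmp7* (0.00 ± 0.07) were not called. These values average 2 regions that differed from each other: *Smad7* was 34.8 CPM in the matrix, 32.6 CPM in the outer root sheath and 71.3 CPM in the *Krt32* region, and *Bmp4* was 21.8, 20.1 and 33.1 CPM, so for both genes the matrix lay within the spread of the outer root sheath. Among other pathway genes, 28 of 31 were called, 11 higher and 17 lower, and *Grem1* (−4.12 ± 0.59), *Bmpr1b* (−3.55 ± 0.29), *Sostdc1* (−3.08 ± 0.13) and *Id4* (−2.16 ± 0.09) were the furthest apart.

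The melanocyte region had higher *Id2* than both layers around it. Against the matrix, 5 of 10 genes were called, all higher, beside 29.6% of all genes (13.5% higher and 16.1% lower). *Id2* was at 1.40 ± 0.11 (*P* adj = 7.3e-14), *Bmp2* at 1.42 ± 0.17 (*P* adj = 1.3e-08), *Smad7* at 1.10 ± 0.15 (*P* adj = 1.3e-07), *Bmp7* at 0.71 ± 0.10 (*P* adj = 3.2e-07) and *Id1* at 0.64 ± 0.09 (*P* adj = 7.3e-07). *Bmp2* and *Id1* lost the call with thinned spots (*P* adj = 0.054 and 0.24), when 103 melanocyte spots remained. *Bmp4* was at −0.78 ± 0.32 (*P* adj = 0.064) and was called with the slice as a block (−0.79, *P* adj = 0.011). Against the *Krt32* region, where *Bmp2* (0.01 ± 0.15) and *Smad7* (−0.08 ± 0.14) were also high, 3 of 10 were called, beside 24.8% of all genes (9.53% higher and 15.3% lower). *Id2* was higher (1.5 ± 0.11, *P* adj = 3.6e-14), and *Bmp4* (−1.53 ± 0.30, *P* adj = 0.00012) and *Bmpr1a* (−0.33 ± 0.09, *P* adj = 0.0068) were lower. With regions from marker scores, 8 of the 10 genes were called in this comparison, including these 3. *Bmpr1a* was not called with library size alone (−0.17, *P* adj = 0.27), and *Id1* was called with the slice as a block (0.22, *P* adj = 0.044). Summed melanocyte markers were 6600 ± 708 CPM in this region and 731 ± 69.0 CPM in the matrix, and summed matrix markers 1000 ± 104 and 1320 ± 72.6 CPM. Which of the cells in these spots carried *Id2* was not tested. In 3 of the 4 other clusterings no melanocyte region formed, so alternatives could be run only where it did. In 301 spots chosen by melanocyte marker score, *Id2* was 172 ± 14.2 CPM, above the 88.4 ± 7.77 CPM of matrix spots chosen likewise.

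Below the follicle, muscle was compared with the matrix, and 6 of 10 genes were called, beside 46.6% of all genes (27.3% higher and 19.3% lower). *Bmp4* was higher in muscle (0.85 ± 0.16, *P* adj = 2.9e-05), as was *Bmp2* (0.59 ± 0.13, *P* adj = 0.0003). *Id3* (−0.50 ± 0.09, *P* adj = 2.6e-05), *Id2* (−0.43 ± 0.10, *P* adj = 0.00063), *Id1* (−0.31 ± 0.08, *P* adj = 0.0026) and *Bmp7* (−0.24 ± 0.09, *P* adj = 0.021) were lower. *Bmp2* lost the call when the members were kept in the clustering (0.33, *P* adj = 0.065) and with thinned spots, and *Bmp7* without slice 2 (*P* adj = 0.061). The muscle region also carried the highest summed adipose markers of the 8 regions, 3810 ± 234 CPM against 1850 ± 142 CPM in the matrix, and their part was not tested. Of the other pathway genes, 15 of 31 were called, 10 higher and 5 lower, with *Fstl1* at 1.57 ± 0.09.

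To reach dermis and fat, each spot was also given the marker list with its highest z-score, where this was at least 1. This left 165 dermal fibroblast spots, 411 adipose spots, 431 epidermis spots and 694 muscle spots. These spots still lay among others: dermal fibroblast spots had a median z-score of 0.64 for the upper follicle list and 0.56 for the outer root sheath list. For the dermal fibroblast list, the median was 1.96 in these spots, 0.68 in epidermis spots, 0.4 in muscle spots and 0.14 in adipose spots. The compared spots thus partly share cell content. Against dermal fibroblast spots, 2 of 10 genes were called in epidermis spots, beside 18.9% of 11851 genes (10% higher and 8.87% lower). *Bmp6* was 1.37, 5.12, 1.30 and 2.26 CPM in epidermis spots and 8.11, 13.9, 14.8 and 16.9 CPM in dermal fibroblast spots, which did not overlap (−2.34 ± 0.49, *P* adj = 0.00015), although these came from 1 to 4 and 4 to 10 UMIs per slice. *Bmpr1a* was lower as well (−0.63 ± 0.13, *P* adj = 7.6e-05), and with the slice as a block *Id1* was called (−0.37, *P* adj = 0.048). With thinned spots *Bmpr1a* lost its call (*P* adj = 0.12) and *Bmp6* was too sparse to be tested. In adipose spots 2 of 10 were called, both higher, beside 13.3% of all genes (4.83% higher and 8.51% lower). *Id3* was 153, 138, 137 and 110 CPM in adipose spots and 81.1, 88.9, 65.1 and 67.6 CPM in dermal fibroblast spots, without overlap (0.74 ± 0.15, *P* adj = 0.00021), and this call held in all alternatives. *Smad7* (0.62 ± 0.20, *P* adj = 0.031) lost its call without slice 1 (*P* adj = 0.27), 3 (0.083) or 4 (0.13). In muscle spots 3 of 10 were called, beside 32.4% of all genes (15.2% higher and 17.2% lower). *Id3* was higher (0.74 ± 0.15, *P* adj = 5.5e-05), and *Bmp6* (−1.25 ± 0.36, *P* adj = 0.0046) and *Bmp7* (−0.39 ± 0.13, *P* adj = 0.028) were lower. Without slice 2 only *Id3* was called, with *Bmp6* at −1 (*P* adj = 0.11), and *Bmp7* also lost its call without slice 1 (*P* adj = 0.14) or 4 (0.16). Without the slice as a block, *Bmp2*, *Bmp4*, *Id1*, *Id2* and *Nog* were called in none of the 3 comparisons. Among other pathway genes, 10 of 28 were called in epidermis spots (1 higher), 9 in adipose spots (3 higher) and 17 in muscle spots (4 higher). *Sostdc1* was lower in adipose (−1.83 ± 0.25) and muscle (−2.48 ± 0.25) spots. All 3 comparisons share the dermal fibroblast spots.

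**Figure D4:**
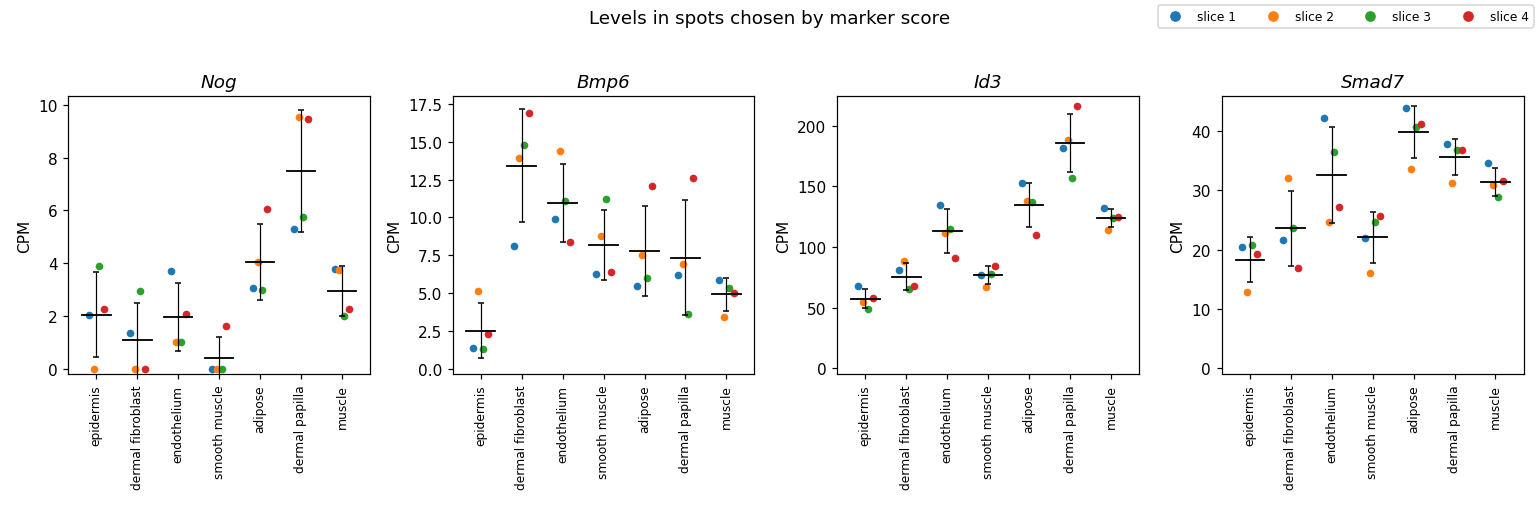
CPM of *Nog*, *Bmp6*, *Id3* and *Smad7* (y axes, from 0) in spots chosen by their highest marker score; points are the 4 slices, lines the means and bars the SD. *Nog* is highest in dermal papilla spots (7.51 CPM), and the *Id3* values of adipose spots lie above those of dermal fibroblast spots in all 4 slices.

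Distance from the epidermis gave another view of the same spots, since they lie on a regular grid. Each was given the number of steps to the nearest epidermis spot. Step 0 was the epidermis region itself, and the steps followed the layers. Of 829 spots at 1 step, 512 were gland and upper follicle. Of 792 at 2 steps, 633 were outer root sheath, and of 553 at 7 steps, 268 were matrix and 240 muscle. Results by distance are therefore not independent of those by region. Over 4 bins of distance (0, 1 to 2, 3 to 5, and 6 or more steps), 9 of 10 genes differed, beside 80.3% of 13456 genes, and *Nog* did not pass (*P* adj = 0.41). The bins held 852, 1621, 2278 and 1660 spots. *Bmp6* and *Bmpr1a* peaked close to the surface: *Bmpr1a* was 66.9 ± 5.65 CPM in the epidermis, 134 ± 12.2 CPM at 2 steps and 76.0 ± 26.5 CPM at 9 or more, and *Bmp6* was 4.78 ± 0.993, 12.5 ± 3.17 and 2.43 ± 2.97 CPM at the same places. *Smad7* peaked in 4 of 4 slices at 4 or 5 steps, at 58.4 ± 10.8 CPM after 4 steps. *Bmp2* had its highest value at 3 to 5 steps in every slice, and its mean was 27.2 ± 1.01 CPM at 5 steps. *Id3* peaked at 6 steps in 3 slices and at 7 in the other, with a mean of 193 ± 14.5 CPM at 6 steps against 63.2 ± 7.65 CPM in the epidermis, and the epidermis was lowest in 4 of 4 slices. *Id2* reached 91.4 ± 8.35 CPM at 6 steps. At 9 or more steps there were 110 spots, and values there spread widely.

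**Figure D5:**
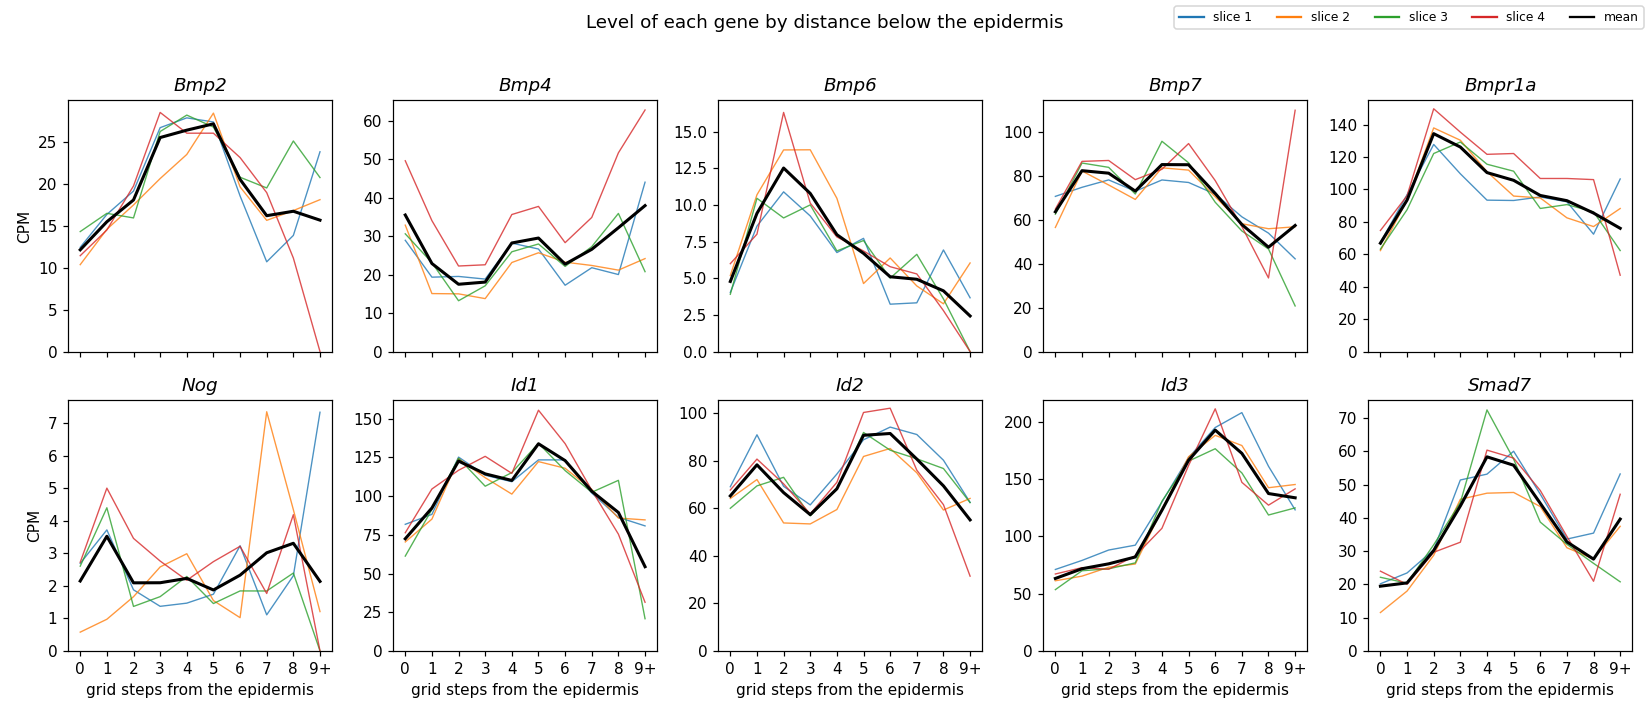
CPM of the 10 genes (y axes, from 0) by grid steps from the nearest epidermis spot (x axes), with 9 and more steps joined. Colored lines are the 4 slices and the black line their mean; *Bmpr1a* peaks at 2 steps (134 CPM), *Smad7* at 4 (58.4 CPM) and *Id3* at 6 (193 CPM).

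Between the epidermis and 1 to 2 steps, 6 of 10 genes were called, beside 26.3% of all genes (11.8% higher and 14.5% lower). *Bmp6* (1.19 ± 0.20, *P* adj = 9e-05) and *Bmpr1a* (0.76 ± 0.08, *P* adj = 1.1e-07) rose and held in all alternatives. *Id1* (0.55 ± 0.08, *P* adj = 1.1e-05), *Bmp2* (0.46 ± 0.14, *P* adj = 0.023) and *Bmp7* (0.33 ± 0.07, *P* adj = 0.0017) rose as well, and *Bmp4* fell by 0.83 (SE 0.19, *P* adj = 0.0018). The *Bmp7* call was lost with the slices cut into 3 strips (0.32, *P* adj = 0.1). The *Bmp2* call was lost without slice 1 (*P* adj = 0.13), 2 (0.11) or 4 (0.077), and those of *Bmp4* (−0.47, *P* adj = 0.13) and *Id1* (0.25, *P* adj = 0.077) with distances from epidermis spots chosen by marker score. With the slice as a block, *Id3* (0.20, *P* adj = 0.037) and *Smad7* (0.39, *P* adj = 0.033) were called too. From there to 3 to 5 steps, 6 of 10 were called, beside 53.1% of all genes (25.2% higher and 27.9% lower). *Smad7* (1.11 ± 0.11, *P* adj = 1.7e-08), *Id3* (0.85 ± 0.10, *P* adj = 1.4e-07) and *Bmp2* (0.71 ± 0.10, *P* adj = 2e-06) rose and held in all alternatives. *Bmp4* (0.42 ± 0.16, *P* adj = 0.032), *Id1* (0.21 ± 0.07, *P* adj = 0.013) and *Bmp6* (−0.34 ± 0.13, *P* adj = 0.035) were called as well. *Bmp4* lost its call without slice 1, 2 or 3 (*P* adj 0.065 to 0.1), *Id1* without slice 4 (*P* adj = 0.078) and *Bmp6* without any 1 of the 4 (*P* adj 0.052 to 0.16), and with these other distances *Bmp4* was at −0.07 and *Bmp6* at 0.04. At 6 or more steps, 7 of 10 were called against 3 to 5 steps, beside 49.7% of all genes (27.9% higher and 21.8% lower). *Bmp6* (−0.79 ± 0.14, *P* adj = 6e-05), *Bmp2* (−0.56 ± 0.09, *P* adj = 1.2e-05), *Bmp7* (−0.41 ± 0.06, *P* adj = 1.2e-05) and *Bmpr1a* (−0.31 ± 0.07, *P* adj = 0.0006) fell in all alternatives. *Smad7* fell by 0.52 (SE 0.10, *P* adj = 0.00011) and *Id1* by 0.18 (SE 0.07, *P* adj = 0.033), and *Id3* was the 1 gene that rose (0.41 ± 0.09, *P* adj = 0.00068), a call lost with the slices cut into 3 strips (*P* adj = 0.13). The *Id1* call was lost without slice 3 (*P* adj = 0.056) or 4 (0.14), and that of *Smad7* with distances from epidermis spots chosen by marker score (−0.19, *P* adj = 0.09). *Id2* was called with the slice as a block (0.13, *P* adj = 0.02). Of the other pathway genes, 14, 24 and 19 of 32 were called in the 3 comparisons, and *Grem1* fell the most from 1 to 2 to 3 to 5 steps (−4.69 ± 0.47).

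As a description of likeness, log2(CPM + 5) was correlated over the 32 sums of 8 regions and 4 slices, which share libraries, between each gene and the 8470 other genes with at least 1000 UMIs (8471 for *Bmp6* and *Nog*). The gene most like *Smad7* was *Bambi* (Pearson's *r* = 0.95), followed by *Aldh1a3* and *Fam49a*. *Bmp2* was closest to *Sct* and *Alox8* (0.96 each), *Id3* to *Slc30a1* (0.97), *Id2* to *Rab38* (0.95), *Id1* to *Btg3* (0.91), *Bmpr1a* to *Dok4* (0.89), *Bmp7* to *Ascc2* (0.88), *Bmp6* to *Alcam* (0.85), *Bmp4* to *Mef2d* (0.84) and *Nog* to *Coq2* (0.64). Over the 8 regional means, *Bmp2* and *Smad7* correlated at 0.95, *Id1* and *Id2* at 0.80, and *Bmp4* with each of the 4 targets at −0.12 to −0.59.

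Within regions, spots with and without a UMI of a ligand were compared for the targets after each spot had been thinned to 5500 UMIs, which left 5768 spots. No test was made, since a spot holds several cells and a single UMI is a poor measure of a ligand. Of the 16 pairs of ligand and target, 2 had a log2 ratio above 0 in 4 of 4 slices. Among 16 pairs, an unrelated pair can also be above 0 in every slice, so the count alone does not single out these 2. *Id3* was higher in spots with a *Bmp2* UMI by 0.06, 0.08, 0.09 and 0.16, and *Smad7* in spots with a *Bmp7* UMI by 0.00, 0.09, 0.08 and 0.24, the first of which rounds to 0. For *Bmp2* and *Smad7*, which were so alike across regions, the ratios were 0.42, 0.42, −0.21 and 0.11, and slice 3 went the other way. The means of the 16 pairs ran from −0.26 to 0.19. *Nog* had a UMI in only 77 thinned spots. Its ratio for *Id3* was above 0 in 4 of 4 slices (0.68, 0.09, 0.29 and 0.21), while its ratios for the other targets went both ways, from −2.49 to 0.49, with no value for *Smad7* in slice 3.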

How the data were processed

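Visium data of 4 slices of P38 dorsal skin were used, grouped as technical replicates of the same mice, which the paper counts as 3. The deposited counts, whole UMIs per gene and spot, were made by the authors with Space Ranger 2.0.1 on mm10 (GRCm38). Whether strand was used is not given in the sources used here. The members and gene lists were chosen with earlier results of these data known. Spots with at least 250 genes (6411 of 6420) were clustered in Seurat 5.3.0 (R 4.3.3, resolution 0.6, 2000 variable genes, 30 components, 20 neighbours) without the 10 members and 39 pathway genes, with no doublet removal, since spots hold several cells. Counts were summed per slice and region (at least 10 spots) and tested in edgeR 4.0.16 (quasi-likelihood, TMM, filterByExpr) with Benjamini-Hochberg adjustment over all genes tested, so an adjusted *P* below comes from that tool. Dermal fibroblast and adipose spots were not found as clusters, and marker scores were used for them. The named genes were the members, and up to 4 other pathway genes per comparison with the largest called changes. Slices held 19393026 to 26910422 UMIs, which limits *Nog* and *Bmp6* most. Tested on simulated data for the matrix and *Krt32* regions (11573 genes, 200 changed by a log2 fold of 1), the test recovered 92.5% of changed genes, and 6.57% of its calls were false. The simulated sums were independent and few genes changed, whereas 54.2% of genes were called between these regions in the data. The simulation therefore does not give the error rate of the calls reported here. All regions of a slice were cut from shared sections, which pairs them by slice, and deviations from region means correlated within slices (mean *r* of 0.204, 0.113, 0.0731 and 0.111 in slices 1 to 4, lowest pair 0.0227). Alternatives were DESeq2 1.42.0, library size alone, no filter, the slice as a block and leaving out each slice. Others were 3 strips, each pooled over the slices, spots thinned to 5500 UMIs, 4 other clusterings and regions from marker scores.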

Additional observations from a re-analysis of the deposited data

Results flagged for a closer look

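Among 80 sets of 4 slices (10 genes in 8 regions), 2 had a slice far from the other 3 by Dixon's criterion, and chance gives about 1 in 20. *Nog* in the epidermis region was 0.577 CPM in slice 2 and 2.61 to 2.73 CPM in the others. *Bmpr1a* in the muscle region was 101 CPM in slice 4 and 81.5 to 84.8 CPM in the others.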

How the results depend on the processing

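Of 75 calls of the 10 genes in 15 comparisons, 35 held in every alternative that gave a value, and of 1053 alternative values 900 kept direction and side of the threshold, 146 lost the call and 7 reversed. The reversed values were *Bmp7* in the upper follicle against epidermis (−0.13 with all deposited spots, −0.08 with members kept in the clustering, −0.10 at resolution 0.9), *Bmp7* in the *Krtap* region against outer root sheath (−0.03) and *Bmpr1a* in the *Krt32* against the *Krtap* region (0.02) with library size alone, and *Bmp4* (−0.07) and *Bmp6* (0.04) from 1 to 2 to 3 to 5 steps with regions from marker scores. The cause was not tested. The upper follicle against epidermis, with 5 calls, had 0 with all deposited spots, 3 with library size alone, 3 without a filter, 1 with members kept, 1 at resolution 0.9 and 2 when thinned. Thinning left 3 calls in outer root sheath against upper follicle, 1 in the *Krtap* region against outer root sheath, 3 in melanocyte against matrix, 1 in adipose, 1 in muscle and 0 in epidermis against dermal fibroblast. The epidermis comparison had 4 with library size alone, adipose 1 with 3 strips and 1 with DESeq2, and melanocyte against *Krt32* had 8 with marker scores. Highest levels moved beyond their SD with marker scores (*Bmp2* 32.0, *Bmp7* 93.2, *Id2* 172, *Smad7* 61.3 CPM) and thinning (*Bmp6* 13.3, *Bmp7* 120, *Id3* 223, *Smad7* 97.4 CPM). Leaving out 1 slice gave 1 to 2 calls in adipose and 1 to 3 in muscle against dermal fibroblast, 2 to 4 in upper follicle against epidermis and 2 to 3 in the *Krtap* region against outer root sheath.

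With the slice as a replicate block, 10 genes differed over the regions, and calls numbered 8, 6 and 8 along the distance bins, 6 in upper follicle against epidermis, 6 in melanocyte against matrix, 4 in melanocyte against *Krt32* and 3 in epidermis against dermal fibroblast. The 8 calls this added are given in the report, and it changed no other call.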
